A study of Rattus norvegicus with 200 samples.

Results

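The genes described here encode the proteins of the cytosolic ribosome, the particle that translates messenger RNA (mRNA) outside mitochondria. Members were the genes whose symbol has the form of a large subunit (Rpl) or small subunit (Rps) protein with a number and an optional letter a, x or y, together with Rplp0, Rplp1, Rplp2 and Rpsa. A mean of at least 1 CPM (CPM being counts scaled to a common library total) over 200 libraries was also asked for. Of 20361 genes in the count table, 77 matched the names and 73 reached that level, 43 of the large subunit and 30 of the small subunit. All 73 passed the filter on low counts that left 14393 genes for testing.

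The libraries came from the brains of adult male Wistar rats, wild type, and are labelled as microglia, the resident macrophages of the brain. Rats ate chow or a high-fat diet (HFD), each given ad libitum, in the dark phase only (dark-feeding) or in the light phase only (light-feeding). The 6 treatments were sampled at 6 Zeitgeber times (ZT, hours after lights on), ZT2, ZT6, ZT10, ZT14, ZT18 and ZT22. Each treatment held 33 or 34 libraries, 5 to 7 per time. Whether every library came from its own rat is not stated in the labels. The p-values therefore reflect only how much these libraries vary, which may in part be technical. Titles number the chow and the HFD libraries in separate series, so diet and any batch that followed those series cannot be told apart.

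A ribosome holds a single copy of most of its proteins, and their mRNAs are among the most abundant of a growing cell. Most of them begin with a 5' terminal oligopyrimidine (TOP) tract, an unbroken run of C and T at the cap. The kinase complex mTORC1, which responds to amino acids, insulin and cellular energy, controls the translation of such mRNAs through the protein LARP1. In bulk RNA, fewer cells of a type and less RNA per cell cannot be told apart.

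The windows below span 15 bases on either side of the annotated start of 8 members, 6 with and 2 without a run of at least 7 C or T over that start, where a TOP tract would lie. They come from the RefSeq promoter table of build GRCr8, which held 55 of the 73 members. The capitals mark the longest run of C and T in each window, read 5' to 3' on the gene's strand. Rps15, Rpl19, Rpl28 and Rps23 were among the members that differed most between the diets, Rpl10 and Rps27 among those that differed least, all 6 with a run over the annotated start. Rpl36, which differed most of all on both restricted schedules, and Rps4x, which differed little, had no run of at least 7 there.
Rps15, chr7:10068101-10068130, minus strand: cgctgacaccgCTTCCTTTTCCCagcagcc
Rpl19, chr10:83519049-83519078, plus strand: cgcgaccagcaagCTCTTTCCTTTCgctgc
Rpl28, chr1:78083518-78083547, minus strand: ccccgcccctagtgTCTTTCTTTCCgtctc
Rps23, chr2:23814502-23814531, plus strand: tgggtccttcctgCCTCTCTTCTCTCTTTC
Rpl10, chrX:157205835-157205864, plus strand: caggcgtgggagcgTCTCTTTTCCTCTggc
Rps27, chr2:177964592-177964621, minus strand: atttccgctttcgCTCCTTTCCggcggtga
Rpl36, chr9:1533765-1533794, plus strand: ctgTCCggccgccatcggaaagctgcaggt
Rps4x, chrX:71342907-71342936, minus strand: tccagcgcgcgcagCCTCCgaccctaattt

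A run of at least 7 C or T lay over the annotated first base in 31 of the 55 members (56.4%). Over all 27456 genes of the promoter table the share was 5.94%, and among 60 mitochondrial ribosomal protein genes, which serve the separate ribosome of mitochondria, it was 6.67%. Anywhere in the 30-base window such a run was found in 42 members (76.4%, against 17.8% of all genes). On the opposite strand 2 members (3.64%) had one, against 19.9% of all genes. Over the wider window of 300 bases, 250 before and 50 after the start, the letters TTCCGG stood on either strand in 29 members (52.7%), in 15.8% of all genes and in 55% of the mitochondrial ribosomal protein genes. TATAAA was found in 9.09% of members and 14.3% of all genes, CCAAT in 23.6% and 37.7%, CACGTG in 9.09% and 6.65%, and TGACGT in 16.4% and 8.22%. These matches are letters in a window around an annotated start, not measured start sites.

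Levels per transcript length were compared in the authors' FPKM values, fragment counts scaled by transcript length and library size. Most members lay within a narrow band. The median over libraries had a median of 119.7 FPKM over the large subunit and 122.2 FPKM over the small subunit, against 12.11 FPKM over 73 mitochondrial ribosomal protein genes and 10.52 FPKM over all genes tested. The middle 50% of large subunit members ran from 85.7 to 163.2 FPKM and that of small subunit members from 92.5 to 156.8 FPKM.

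The highest median levels were those of Rps29 (411.1 FPKM, 209 to 1051 over libraries), Rps27 (339.2 FPKM), Rpl37 (268.9 FPKM), Rplp1 (262.4 FPKM), Rpl13a (247.6 FPKM) and Rpl35 (215.5 FPKM). Rpl41, the smallest ribosomal protein, followed at 214 FPKM. Rps29, Rps27 and Rpl37 are short mRNAs, with effective lengths of 63.43, 82.13 and 100.8 bases implied by the ratio of counts to FPKM, so their levels rest strongly on the length correction. At the low end stood Rps9 (48.59 FPKM), Rpl36a (31.44 FPKM), Rps26 (28.78 FPKM), Rpl15 (26.28 FPKM) and Rps19 (3.44 FPKM). Rps27a, made as a fusion with ubiquitin, had 60.06 FPKM. Rps19, the gene most often mutated in Diamond-Blackfan anaemia, was at 0 counts in 47 of 200 libraries and Rps26 in 5.

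Of the 77 matching names, 4 averaged below 1 CPM and were left out. Rpl35a averaged 0.0263 CPM and Rpl30 0.0377 CPM, and Rpl39, a protein of the exit tunnel, 0.393 CPM. Rps6, the substrate of S6 kinase downstream of mTORC1, averaged 0.622 CPM and was at 0 in 172 libraries, with up to 19 CPM in others. Rps19 (1.21 CPM) lay just inside the limit, and the next member was Rps26 (5.04 CPM). Ribosomal protein genes have many near-identical processed copies in mammalian genomes, and how reads shared between copies were assigned is not given in the sources used here, so the level of any single member is uncertain to that extent.

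**Figure D1:**
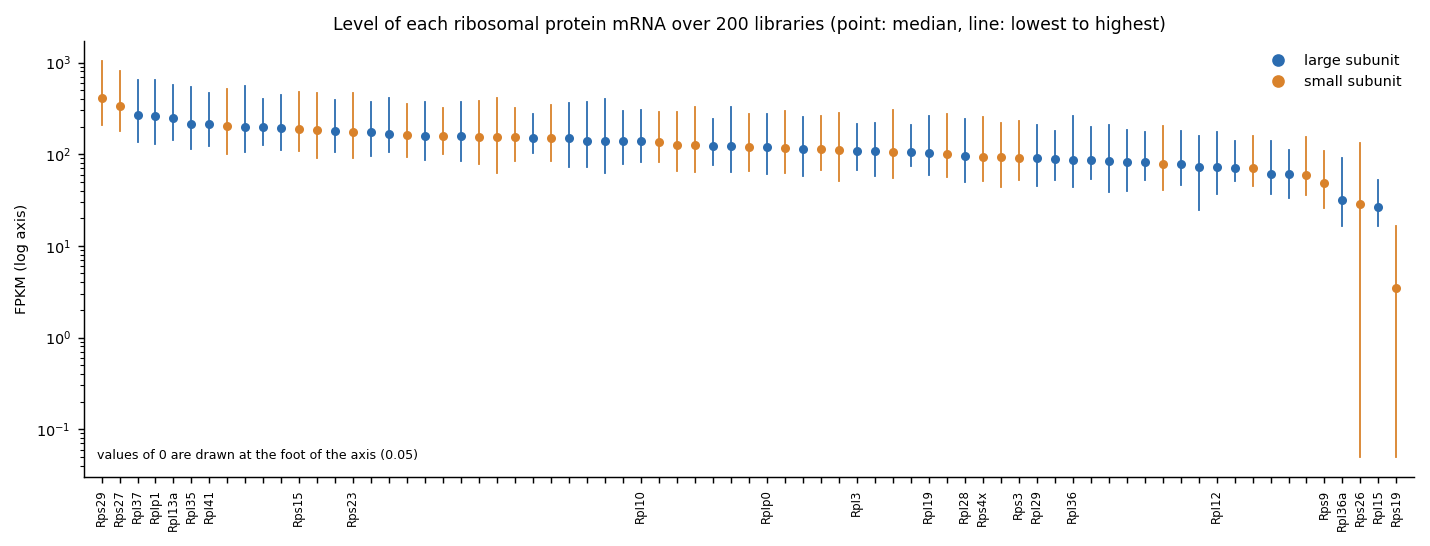
Median FPKM of each of the 73 members over 200 libraries (points, log axis) with the lowest and highest library (lines), blue for the large and orange for the small subunit, with some members named on the axis. Most medians lie near 100 FPKM, Rps29 is highest at 411.1 FPKM, and Rps26 and Rps19 reach 0 in some libraries.

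Total counts per library ran from 3.78 to 11.64 M (median 7.55 M), and members together drew 10370 to 58210 counts (median 23320), on average 0.327% of a library. Microglial genes were present but not dominant. In chow ad libitum the summed level of 20 homeostatic microglia markers found had a median of 2159 CPM (1281 to 4310), that of 12 oligodendrocyte markers 15240 CPM and that of 15 neuron markers 4989 CPM, with 0 of these genes at 0 in all libraries. Below, CPM values use library sizes adjusted by edgeR's TMM method, and a gene was called where its Benjamini-Hochberg adjusted p over all 14393 genes in edgeR's quasi-likelihood test was under 0.05.

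The members moved as a block from library to library. After the mean of each treatment and time was removed, a single principal component held 73.45% of the variance of the 73 members (73.8% within the large and 73.71% within the small subunit), against 14.2% for the mitochondrial ribosomal proteins. The mitochondrial set was also lower in level, its summed CPM averaging 815.6 against 3262 for the members. The part of noise from low counts in its smaller share was not tested. Every member had the same sign on the component of the members. The component held 88.4% of the residual variance of Rps3, a protein of the mRNA entry site, 87.5% of that of Rplp0, the base of the stalk, and 87.3% of that of Rps23. It held 39.6% for Rpl22, 34.6% for Rpl8, 8.74% for Rps19 and 6.24% for Rps26, the last 2 having the lowest mean CPM. The ratio of summed large to small subunit CPM stayed between 1.53 and 1.79 in all 200 libraries (1.67 ± 0.0479, SD), while the sum itself ran from 1945 to 6437 CPM.

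Part of this block variation ran with a feature of the libraries that is not about ribosomes. In each library the level of the genes that are not ribosomal proteins was regressed on transcript length, on log2 scales, and 10 libraries had a slope below -0.1, short transcripts being high in them. These libraries are called apart here. Their summed member level was 4390 to 6437 CPM (median 5498), against 1945 to 5649 CPM (median 3062) in the other 190. They were also rich in red cell genes (2468 CPM in median over 8 erythrocyte genes, against 246.7 CPM). Medians were higher too for microglial genes (3441 CPM against 1997 CPM), meningeal fibroblast genes (154.6 against 71.55 CPM), T and NK cell genes (90.59 against 50.73 CPM), astrocyte genes (1222 against 813.4 CPM) and border macrophage genes (37.92 against 24.97 CPM). The same held for mural cell (68.77 against 45.79 CPM), endothelial (207 against 156.7 CPM) and oligodendrocyte genes (18250 against 15780 CPM). Neuron genes (5001 against 4983 CPM) and oligodendrocyte precursor genes (594.3 against 588.9 CPM) were nearly level. Of the 10, 9 were chow libraries, at ZT14 (2) and ZT18 (1) ad libitum, at ZT14 (3) in dark-feeding and at ZT2 (2) and ZT18 (1) in light-feeding, and 1 was an HFD ad libitum library at ZT6. Those at ZT14 and ZT2 had title numbers 49, 50, 51, 52, 53, 56 and 57, all the chow titles from 49 to 57. Chow titles 48 and 60 had slopes of -0.023 and -0.062. Treatment and hour cannot be told apart here from place in the title series. Many counts of called members are given with and without the 10 libraries apart, a choice made after the data were seen. Fitted peak times and peak-to-trough ratios are given only with them. Over the other 190, the single component held 66.93% of the variance of the members. The group means removed there were still those of all 200 libraries. Offsets set by the libraries apart thus remain in that share.

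**Figure D2:**
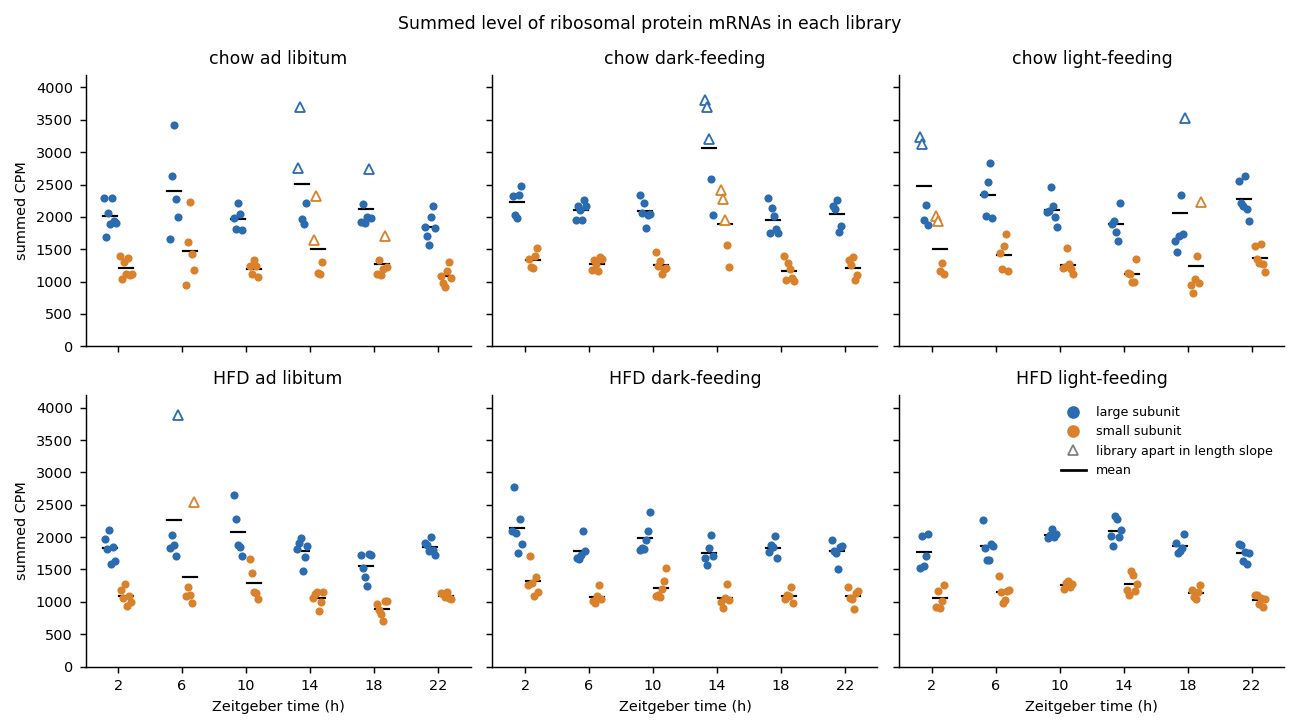
Summed CPM of the 43 large subunit (blue) and 30 small subunit (orange) members in each of 200 libraries, by Zeitgeber time in hours and treatment, with group means as black bars. Open triangles are the 10 libraries apart in length slope, which are the highest of their groups, for example at ZT14 of chow dark-feeding.

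HFD was compared with chow on each schedule to ask how the diet was associated with ribosomal protein mRNA levels, with time as a factor. Every called member was lower on HFD, though not in fits that allowed for transcript length or cell type markers. Ad libitum, 29 of 73 members fell and 0 rose, in dark-feeding 63 fell and 0 rose, and in light-feeding 54 fell and 0 rose. Lower calls over all 14393 genes came to 10.1% ad libitum, 23.1% in dark-feeding and 25.1% in light-feeding, against 39.7%, 86.3% and 74% of the members, and higher calls to 9.96%, 22.8% and 25.2%. With length offsets, described below, 10 members were higher in dark-feeding and 12 in light-feeding, and with marker scores 0 were lower and 18 higher in light-feeding. The falls were small. Median log2 fold changes (log2FC) of the members were -0.19, -0.24 and -0.21, where those of all genes were -0.01, -0.01 and -0.01, and all 73 members had a log2FC below 0 on each schedule.

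The summed member level in chow ad libitum was 2482 to 6027 CPM (median 3183, n = 34) and in HFD ad libitum 1945 to 6437 CPM (median 2897, n = 34). In dark-feeding it was 2756 to 6218 CPM (median 3382, n = 33) on chow and 2408 to 4488 CPM (median 2930, n = 33) on HFD. In light-feeding it was 2283 to 5756 CPM (median 3317, n = 33) and 2443 to 3795 CPM (median 3040, n = 33). HFD medians were lower throughout, and the groups overlapped on every schedule.

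The subunits had close medians, while a larger share of the large subunit was called on each schedule, a difference that was not tested. In dark-feeding 40 of 43 large subunit members and 23 of 30 small subunit members fell, with median log2FC of -0.24 and -0.26. In light-feeding these were 36 of 43 (-0.21) and 18 of 30 (-0.22), and ad libitum 18 of 43 (-0.18) and 11 of 30 (-0.19). Mitochondrial ribosomal proteins moved less in median, by -0.09, -0.15 and -0.13 in the order ad libitum, dark-feeding, light-feeding, with 16, 43 and 37 of 73 lower.

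Rps15, a small subunit protein near the decoding site, was 26.8 to 95.3 CPM (median 41.7) in chow ad libitum and 24.2 to 78.2 CPM (median 34.7) in HFD ad libitum. The ranges overlapped and the HFD median was lower. The fall was the largest of the called members ad libitum (log2FC -0.35, SE 0.09, adjusted p = 2.69e-03, edgeR), and Rps15 also fell in dark-feeding (-0.40, SE 0.07, adjusted p = 1.09e-06) and light-feeding (-0.41, SE 0.07, adjusted p = 4.57e-06).

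Rpl36, a small protein of the large subunit, was 7.41 to 22.1 CPM (median 10.7) in chow dark-feeding and 4.40 to 12.2 CPM (median 8.07) in HFD dark-feeding. The HFD libraries filled the lower part of the chow range and reached below it. It had the largest fall of any called member in dark-feeding (log2FC -0.49, SE 0.08, adjusted p = 8.85e-07) and in light-feeding (-0.48, SE 0.07, adjusted p = 2.27e-07).

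Ad libitum the other large falls were those of Rpl28 (-0.29), Rpl31 (-0.29), Rps23 (-0.28), Rpl14 (-0.28), Rpl29 (-0.28), Rps20 (-0.28) and Rps12 (-0.26). In dark-feeding Rpl36 was followed by Rpl8 (-0.41), Rpl19 (-0.41), Rps15, Rpl29 (-0.38), Rps28 (-0.38), Rpl28 (-0.37) and Rpl41 (-0.36). In light-feeding the list was Rpl36, Rps15, Rpl29 (-0.40), Rps29 (-0.39), Rps28 (-0.39), Rpl19 (-0.37), Rps23 (-0.37) and Rps21 (-0.36). Rpl29 and Rps15 stood in all 3 lists of 8. The members nearest 0 were Rpl10 (-0.07, 95% interval -0.19 to 0.05), Rpl23 (-0.08) and Rpl34 (-0.09) ad libitum. In dark-feeding they were Rpl10 (-0.07), Rps27 (-0.09) and Rps4x (-0.09, 95% interval -0.22 to 0.04), and in light-feeding Rps4x (-0.02, 95% interval -0.19 to 0.14), Rpl12 (-0.04) and Rps27 (-0.06). Rpl10 completes the large subunit late in its assembly and Rps4x is encoded on the X chromosome.

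Across the schedules, 25 members were called in all 3 comparisons, 31 in 2, 9 in 1 and 8 in 0. The matching shares over all genes are not given here, so this overlap cannot be set against them. The 8 without a call were Rps26, Rps19, Rps27a, Rps15a, Rpl12, Rps4x, Rps27 and Rpl10. For Rps26 and Rps19, few counts left wide errors, the log2FC of Rps19 ad libitum being -0.20 with a 95% interval of -0.87 to 0.47.

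**Figure D3:**
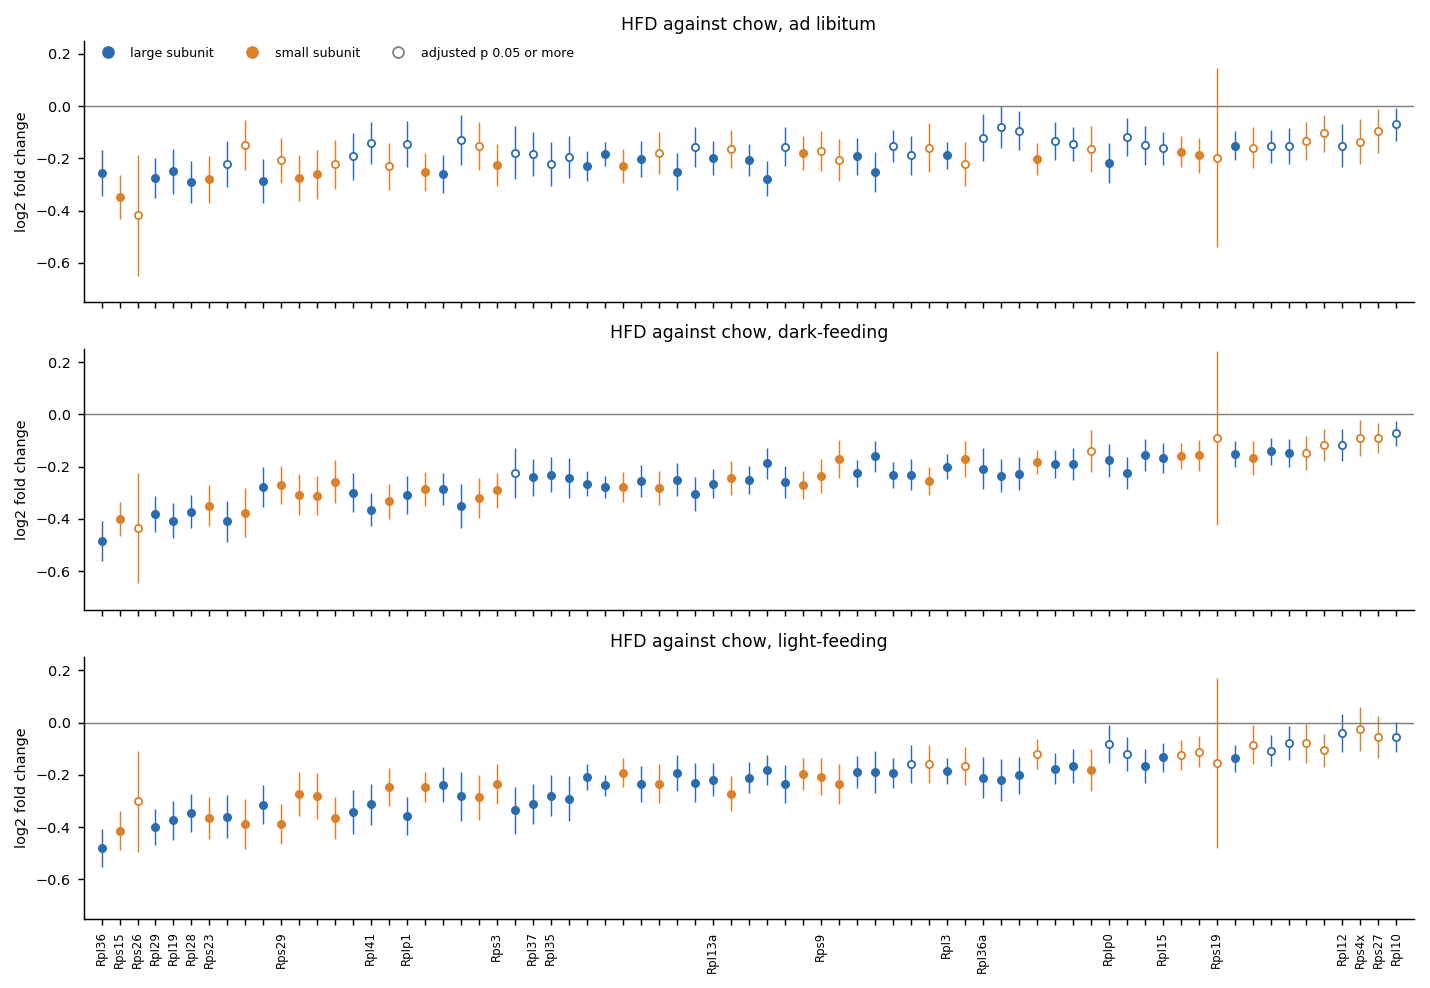
Log2 fold change of HFD against chow for each of the 73 members on the 3 schedules, with the standard error as bars and members in order of their mean over the schedules, some named on the axis. Filled points passed an adjusted p of 0.05, all of them below 0, and with length offsets or marker scores in the model some members in dark-feeding or light-feeding lay above 0.

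By role in the ribosome, the P stalk recruits the elongation factors. Its base Rplp0 was 69.4 to 199 CPM (median 96.7) in chow ad libitum and 52.4 to 210 CPM (median 88.4) in HFD ad libitum, overlapping almost fully, and fell with a log2FC of -0.22 (SE 0.08, adjusted p = 3.22e-02). The acidic proteins Rplp1 and Rplp2 fell in dark-feeding (log2FC -0.31 and -0.30) and in light-feeding (-0.36 and -0.34), and had log2FC of -0.15 and -0.19 without a call ad libitum. Rpl12, the other protein at the stalk base, had -0.15, -0.12 and -0.04 in the order ad libitum, dark-feeding, light-feeding, and was not called in any. Rplp0 in light-feeding had -0.08 (95% interval -0.22 to 0.06).

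Rpl5 and Rpl11 bind 5S rRNA and, when free, inhibit the p53 ligase MDM2. In dark-feeding Rpl5 fell by 0.15 and Rpl11 fell by 0.26 on the log2 scale, and in light-feeding Rpl11 fell by 0.23 while Rpl5 had a log2FC of -0.08 that was not called. Ad libitum they had log2FC of -0.15 and -0.16 without a call. Rps2 and Rps3, at the mRNA entry channel, both fell ad libitum (log2FC -0.20 and -0.23) and in dark-feeding (-0.18 and -0.29), and in light-feeding only Rps3 was called (-0.24), Rps2 having a log2FC of -0.12 with adjusted p = 6.58e-02.

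At the mRNA exit site, Rpsa fell ad libitum (log2FC -0.17) and in dark-feeding (-0.16), and had -0.12 without a call in light-feeding. Rps28 fell in dark-feeding (-0.38) and light-feeding (-0.39), with -0.15 and no call ad libitum. Rps14 fell in dark-feeding (-0.26) and had -0.16 without a call on each of the others. Rps26 had -0.42, -0.43 and -0.30 in the order ad libitum, dark-feeding, light-feeding with no call. Around the exit tunnel of the nascent peptide, 4 of 7 tested members fell ad libitum, Rpl31 (-0.29), Rpl19 (-0.25), Rpl26 (-0.20) and Rpl4 (-0.15). All 7 fell in dark-feeding, adding Rpl23a (-0.30), Rpl35 (-0.23) and Rpl17 (-0.14), and 6 fell in light-feeding, Rpl17 having -0.11 there.

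Rpl3, which lines the peptidyl transferase centre, was 97 to 189 CPM (median 115.9) in chow ad libitum and 71.5 to 204 CPM (median 103.1) in HFD ad libitum. It fell on every schedule (log2FC -0.19, -0.20 and -0.18 in the same order, the adjusted p ad libitum being 6.90e-03). Rpl22 fell in dark-feeding (-0.19) and light-feeding (-0.17) and had -0.14 without a call ad libitum. Rps27a had -0.13, -0.15 and -0.08 and no call. Rpl41 fell in dark-feeding (-0.36) and light-feeding (-0.31), with -0.14 and no call ad libitum. Among the most and least abundant members, Rpl37, Rpl35, Rps9, Rpl36a and Rpl15 were called in 2 comparisons, Rps29 in 2 and Rpl13a in all 3.

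The other genes of protein synthesis moved less uniformly. Fau, a ubiquitin-like fusion carrying the small subunit protein eS30, fell on each schedule, with log2FC of -0.24, -0.39 and -0.41 in the order ad libitum, dark-feeding, light-feeding. Of 21 translation factors with TOP mRNAs, 7 fell and 1 rose ad libitum, 11 fell and 3 rose in dark-feeding, and 6 fell and 4 rose in light-feeding, with medians of -0.09, -0.11 and -0.05. The light-feeding counts lay near the shares over all genes given above. Eif3f and Eif3k, subunits of initiation factor 3, fell on each (Eif3f -0.19, -0.19 and -0.18, Eif3k -0.14, -0.34 and -0.37), and Nap1l1, a histone chaperone, rose in dark-feeding (0.14) and light-feeding (0.11). Of 5 tested paralogues of ribosomal proteins, Rpl36al fell in dark-feeding (-0.29) and light-feeding (-0.24), where Rpl7l1 rose (0.07).

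Of 32 ribosome biogenesis genes 9 fell and 1 rose ad libitum, 15 fell and 4 rose in dark-feeding, and 13 fell and 3 rose in light-feeding, their medians being -0.07, -0.07 and -0.07. Dkc1, the pseudouridine synthase of box H/ACA particles, fell most clearly (log2FC -0.30, -0.34 and -0.38 in the same order), with Rrp9 (-0.22, -0.21 and -0.24) and Bop1 (-0.19, -0.15 and -0.15). Of 11 tested genes of RNA polymerase I, 5, 4 and 3 fell and 1, 3 and 3 rose, the light-feeding counts being near the shares over all genes given above. Ubtf, which binds rDNA, fell on each schedule (-0.14, -0.15 and -0.20), while Taf1d rose on each (0.15, 0.25 and 0.18) and Rrn3, the growth-regulated initiation factor, rose in dark-feeding (0.20) and light-feeding (0.24).

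Of 17 regulators of mTORC1 and TOP mRNAs, 1, 5 and 4 fell and 3, 4 and 5 rose, near the shares over all genes in dark-feeding (23.1% lower, 22.8% higher) and light-feeding (25.1% and 25.2%), with medians of -0.002, 0.047 and 0.002 in the order ad libitum, dark-feeding, light-feeding. Deptor, an inhibitor of mTOR, rose on each schedule (0.11, 0.19 and 0.11). Mtor itself rose in dark-feeding (0.09) and light-feeding (0.10), as did Larp1 (0.06 and 0.07), while Rptor (0.15) and Eif4ebp2 (0.24) were called in light-feeding alone among the 3 comparisons, a difference between schedules that was not tested. Akt1s1 fell ad libitum (-0.11), and Rps6kb2 (-0.11) and Cnbp (-0.11) fell in dark-feeding. Of 9 tested genes of the MYC network, 1 rose and 0 fell on each schedule, Mlx ad libitum (0.09) and Mga, a repressor, in dark-feeding (0.33) and light-feeding (0.31). These counts were near or below the shares over all genes. Myc itself had log2FC of -0.16 in dark-feeding and -0.22 in light-feeding without a call.

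The shift with length reached beyond the ribosome. Among the 1363 genes with the shortest transcripts, members excluded, the median log2FC was -0.09 ad libitum, -0.17 in dark-feeding and -0.16 in light-feeding, and 16.7%, 48.3% and 46.4% were lower. Among the 1433 with the longest, the medians were 0.06, 0.12 and 0.10, and 27.7%, 58.1% and 52.8% were higher. A smooth trend with transcript length was also removed from each library, fitted over all genes tested, members included. How much of the members' own change the trend took up was not tested. With the trend removed, 15, 10 and 7 members were lower and 0, 10 and 12 higher, the shares over all genes not being given. The medians over all members were then -0.07, -0.02 and 0.01. Lower members thus no longer outnumbered higher ones in dark-feeding or in light-feeding. Among the members, most of which are short by the same measure, the 24 of longest effective length (from 432.2 bases) had medians of -0.18, -0.19 and -0.18 and the 25 of shortest -0.18, -0.26 and -0.29. Members with a C or T run over the annotated start had medians of -0.21, -0.23 and -0.19 (n = 31) and those without -0.16, -0.25 and -0.22 (n = 24).

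Cell type markers moved with the diet as well. Microglia markers ran from 1281 to 4310 CPM in sum in chow ad libitum and 1264 to 2862 CPM in HFD ad libitum, with 9 of 19 tested lower, and 12 and 11 of 19 were lower in dark-feeding and light-feeding. Astrocyte markers ran from 680.4 to 1960 CPM in chow light-feeding and from 579 to 1035 CPM in HFD light-feeding, with 13 of 14 lower there and in dark-feeding and 0 lower ad libitum. Of 6 tested erythrocyte genes 5, 6 and 3 were lower, while of 12 oligodendrocyte markers 3, 8 and 8 were higher and 0 lower. With scores of oligodendrocyte, neuron, astrocyte, endothelial and erythrocyte markers in the model, 0, 8 and 0 members were lower and, in light-feeding, 18 were higher (median 0.17). The part of these markers in the result cannot be told apart from that of the diet.

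Leaving out the 10 libraries apart left 26, 47 and 35 members lower and 0 higher, with medians of -0.15, -0.16 and -0.13. The share over all genes in that fit is not given here, nor for most other counts from alternative fits. With counts summed over runs of neighbouring title numbers as units, 0, 37 and 34 were lower, and ad libitum 0 of all genes were called. Single times carried much of the ad libitum count, 4 members being lower without ZT14, 1 without ZT18 and 44 without ZT6. In dark-feeding 37 were lower without ZT14, and in light-feeding 31 without ZT2 and 32 without ZT22.

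The diet was then compared at each time, in a model of all 36 groups of treatment and time. Lower members clustered at certain hours. Ad libitum they were found at ZT14 (47 of 73) and ZT18 (53), early and in the middle of the dark phase, in dark-feeding at ZT14 (72) and ZT22 (5), and in light-feeding at ZT2 (47), ZT6 (22), ZT18 (1) and ZT22 (18). At the other 10 combinations of schedule and time 0 were lower by edgeR, with 0 to 12 members at an unadjusted p under 0.05, and 0 were higher at any time in this model. Lower calls over all genes came to 5.41% and 10.8% at ZT14 and ZT18 ad libitum, 20.2% and 6.76% at ZT14 and ZT22 in dark-feeding, and 11.6%, 16.5%, 0.806% and 3.22% at ZT2, ZT6, ZT18 and ZT22 in light-feeding. The 5 members at ZT22 of dark-feeding and the 1 at ZT18 of light-feeding were near these shares. Where 0 members were lower, the share over all genes was 0.0486% at ZT2 ad libitum, 5.45% at ZT2 and 0.0139% at ZT10 of dark-feeding, 7.64% at ZT10 of light-feeding and 0% at the other 6.

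Not all of these stood without the libraries apart. At ZT14 ad libitum 0 members were then lower and at ZT2 of light-feeding 3, and at ZT14 of dark-feeding 19. At ZT18 ad libitum 47 were lower, at ZT6 of light-feeding 44 and at ZT22 of light-feeding 46, with 9 at ZT22 of dark-feeding. At ZT6 and ZT22 of light-feeding and ZT22 of dark-feeding no library was left out of the groups compared, and the medians were -0.34, -0.42 and -0.19 in both fits. The shares over all genes without the libraries apart are not given here.

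At ZT18 ad libitum the summed member level was 2993 to 4444 CPM (median 3199, n = 6) on chow and 1945 to 2757 CPM (median 2536, n = 6) on HFD, with no overlap. Rps15 was 40.8 to 60.5 CPM (median 45.6) on chow and 24.2 to 32.2 CPM (median 26.4) on HFD. All 6 HFD libraries lay below all 6 chow libraries, and the log2FC was -0.81 (SE 0.17, adjusted p = 2.01e-04), or -0.73 with adjusted p = 1.27e-04 without the library apart. Rps26, at the mRNA exit site, was 8.31, 8.86, 0, 14, 12 and 8 CPM in the chow libraries, while the HFD libraries had 1.33, 3.29, 1.65, 1, 0 and 1.72 CPM. One chow library at 0 fell within the HFD range, and the log2FC of -2.39 (SE 0.53, adjusted p = 5.66e-04) was the largest of any member at that time. Microglia markers summed to 2191 to 3246 CPM on chow and 1264 to 1856 CPM on HFD at this time, also without overlap, and their part in the result was not tested.

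At ZT14 of dark-feeding the 5 chow libraries held 89.5, 87.1, 62.2, 64.7 and 47 CPM of Rps15 while the 5 HFD libraries had 32.3, 31.4, 36.3, 33.3 and 32.8 CPM. Every chow library was above every HFD library, and the log2FC was -1.08 (SE 0.18, adjusted p = 3.82e-07). Without the 3 chow libraries apart, which held 89.5, 87.1 and 62.2 CPM, it was -0.75 (adjusted p = 7.79e-03). Rps3 was 110, 113, 97.7, 74.9 and 55.3 CPM in the chow libraries. In the HFD libraries it was 43.4, 38.1, 47.4, 54 and 42.6 CPM, the groups being separate (log2FC -1.004, adjusted p = 3.18e-06, and -0.53 with adjusted p = 4.40e-02 without the libraries apart). Erythrocyte genes summed to 380 to 6735 CPM in these chow libraries and 109.5 to 215.3 CPM in the HFD libraries.

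In light-feeding the difference stood around the start of the light phase. At ZT22 Rps15 was 42.5 to 56.4 CPM (median 51.8, n = 6) on chow and 30.6 to 45.2 CPM (median 32.8, n = 6) on HFD, and the groups overlapped through 1 HFD library (log2FC -0.49, adjusted p = 5.83e-02, and 1.34e-02 without the libraries apart). Rpl37a, a zinc finger protein of the large subunit, was 16 to 24 CPM (median 21.9) on chow and 6.82 to 14.3 CPM (median 11) on HFD, without overlap. Its log2FC of -0.95 (SE 0.21, adjusted p = 6.76e-03) was the largest at that time. At ZT6 Rpl36 was 13.4, 9.44, 15.5, 13.9 and 9.69 CPM in the chow libraries and ran from 4.65 to 11.1 CPM (median 6.21, n = 6) on HFD, a single HFD library reaching into the chow range (log2FC -0.84, SE 0.18, adjusted p = 1.40e-04). At ZT14 the same comparison gave a median of 0.16 over the members, above 0, with no call.

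**Figure D4:**
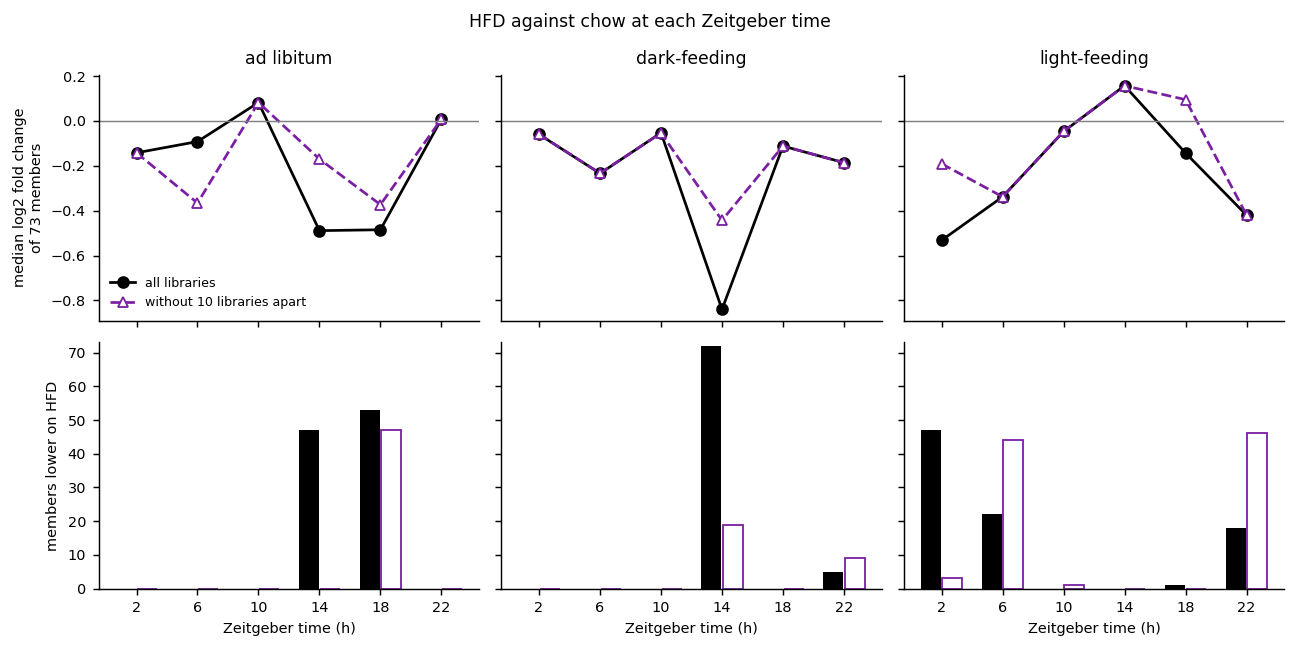
Upper row, median log2 fold change of HFD against chow over the 73 members at each Zeitgeber time (hours) and schedule; lower row, number of members lower on HFD at an adjusted p under 0.05. Black shows all libraries and purple the fit without the 10 libraries apart, where ZT14 ad libitum drops from 47 to 0 and ZT18 from 53 to 47.

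Whether the diet difference changed over time was tested as an interaction of diet and time. In dark-feeding 62 of 73 members were called (11.4% of all genes) and in light-feeding 9, not far above the 8.75% of all genes. Ad libitum 0 were called (0%, 33 members at an unadjusted p under 0.05). Without the libraries apart these counts were 0, 52 and 0, the shares over all genes not being given for that fit. In dark-feeding the libraries left out were the 3 at ZT14 of chow, and in light-feeding the 2 at ZT2 and 1 at ZT18 of chow.

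Feeding schedule was compared within each diet, where the comparisons share their ad libitum libraries. On chow 0 members were called for dark-feeding against ad libitum (0% of all genes), light-feeding against ad libitum (1.6%) or light-feeding against dark-feeding (0%), with 1, 0 and 0 at an unadjusted p under 0.05 by edgeR. On HFD 0 were called for dark-feeding against ad libitum (4.7%) and for light-feeding against dark-feeding (0.0834%), with 3 and 0 at an unadjusted p. DESeq2 gave the same counts of 0 in these 5 comparisons. Median log2FC over the members stayed between -0.02 and 0.05, and no member exceeded 0.22 in size.

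Light-feeding against ad libitum on HFD gave 2 calls (10.7% of all genes). Rps2 was 70.5 to 173 CPM (median 95) ad libitum and 84.1 to 129.5 CPM (median 106.2) in light-feeding, and rose by a log2FC of 0.13 (SE 0.04, adjusted p = 3.61e-02). Rpl41 was 24.7 to 78 CPM (median 37.4) and 23.3 to 47.2 CPM (median 33), and fell with a log2FC of -0.21 (SE 0.07, adjusted p = 4.64e-02). Both pairs of groups overlapped. Of the HFD ad libitum libraries 28 of 34 had title numbers up to 46, and no restricted HFD library did. With only title numbers above 46, 0 members were called. For the interaction of diet with dark-feeding (0.792% of all genes) and with light-feeding (9.81%) 0 members were called, with 1 and 0 at an unadjusted p under 0.05.

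Daily rhythms were tested within each treatment as a cosine of 24 h period. The fitted peaks of the members lay close together within each treatment, passed or not. The mean peak was ZT11.2 in chow ad libitum, ZT12.9 in chow dark-feeding, ZT2.5 in chow light-feeding, ZT6.7 in HFD ad libitum, ZT3.8 in HFD dark-feeding and ZT12.3 in HFD light-feeding. Within 4 h of that mean lay 71, 73, 73, 73, 65 and 70 of the 73 members in that order, where the members share libraries and so are not independent. The median ratio of fitted peak to trough was 1.23, 1.26, 1.304, 1.39, 1.16 and 1.26. All these fits included the libraries apart, 3 of them at ZT14 of chow dark-feeding and 2 at ZT2 of chow light-feeding. Peaks and ratios without those libraries are not given here.

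How many of these rhythms passed depended on the form of the test. With the cosine, in HFD ad libitum 40 of 73 members were called (19.6% of all genes), 19 of the large and 21 of the small subunit. In chow ad libitum 0 were called (4.56%, with 6 at an unadjusted p under 0.05 and 0 by DESeq2 after adjustment), in chow dark-feeding 6 (22.9%), in chow light-feeding 6 (20.3%), in HFD dark-feeding 5 (27.5%) and in HFD light-feeding 15 (0.841%). In every chow treatment and in HFD dark-feeding a smaller share of the members than of all genes was called. With time as a factor in place of the cosine, 72 members were called in chow dark-feeding and 16 in HFD ad libitum, and DESeq2 called 30 in HFD light-feeding. With marker scores in the model 3 were called in HFD ad libitum and 6 in HFD light-feeding, and with runs of title numbers as units 0 in every treatment. The shares over all genes in these other forms of the test are not given here, so the counts cannot be set against them.

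In HFD ad libitum large ratios among called members were those of Rpl37a (1.66-fold, peak ZT5.9), Rps28 (1.63-fold, ZT7.3), Rps12 (1.62-fold, ZT6.2, adjusted p = 4.53e-03) and Rps23 (1.58-fold, ZT6.4). Rps12 averaged 25.4 ± 2.24 CPM (SD, n = 6) at ZT2, 32.3 ± 16.4 (n = 5) at ZT6, 30.6 ± 10.1 (n = 5) at ZT10, 21.8 ± 2.06 (n = 6) at ZT14, 18.4 ± 2.34 (n = 6) at ZT18 and 24.9 ± 1.66 (n = 6) at ZT22. The spread was several times wider at ZT6 and ZT10 than at other times. The library apart at ZT6 (title number 45, summed member level 6437 CPM) belongs to this treatment, and without it 19 members were called. At ZT10 the summed level was 4309 and 3723 CPM in title numbers 37 and 39. It was 3034, 2984 and 2759 CPM in title numbers 114, 136 and 137 of the same group.

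In chow dark-feeding the called members included Rps12 (1.55-fold, peak ZT11.4), Rpl9 (1.44-fold, ZT13.7), Rpl7 (1.36-fold, ZT12.6), Rpl4 (1.33-fold, ZT13.7) and Rpl24 (1.304-fold, ZT14.6), and without the libraries apart 1 was called. In chow light-feeding they included Rps29 (1.46-fold, peak ZT1.1), Rpl36 (1.42-fold, ZT3.4), Rplp1 (1.42-fold, ZT2.5), Rps15 (1.39-fold, ZT3.1) and Rps2 (1.37-fold, ZT3.4), and without those libraries 19 were called. In HFD dark-feeding they included Rps20 (1.45-fold, ZT6.7), Rplp2 (1.37-fold, ZT5.4), Rpl41 (1.31-fold, ZT5.8) and Rpl18 (1.17-fold, ZT8.9). In HFD light-feeding the largest were Rps27 (1.47-fold, ZT10.3), Rps4x (1.41-fold, ZT11.6), Rpl19 (1.37-fold, ZT15.3), Rpl23 (1.35-fold, ZT13.9), Rps3a (1.35-fold, ZT11.8) and Rpl23a (1.31-fold, ZT13.1). Shares over all genes for the rhythm counts without the libraries apart are not given here.

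**Figure D5:**
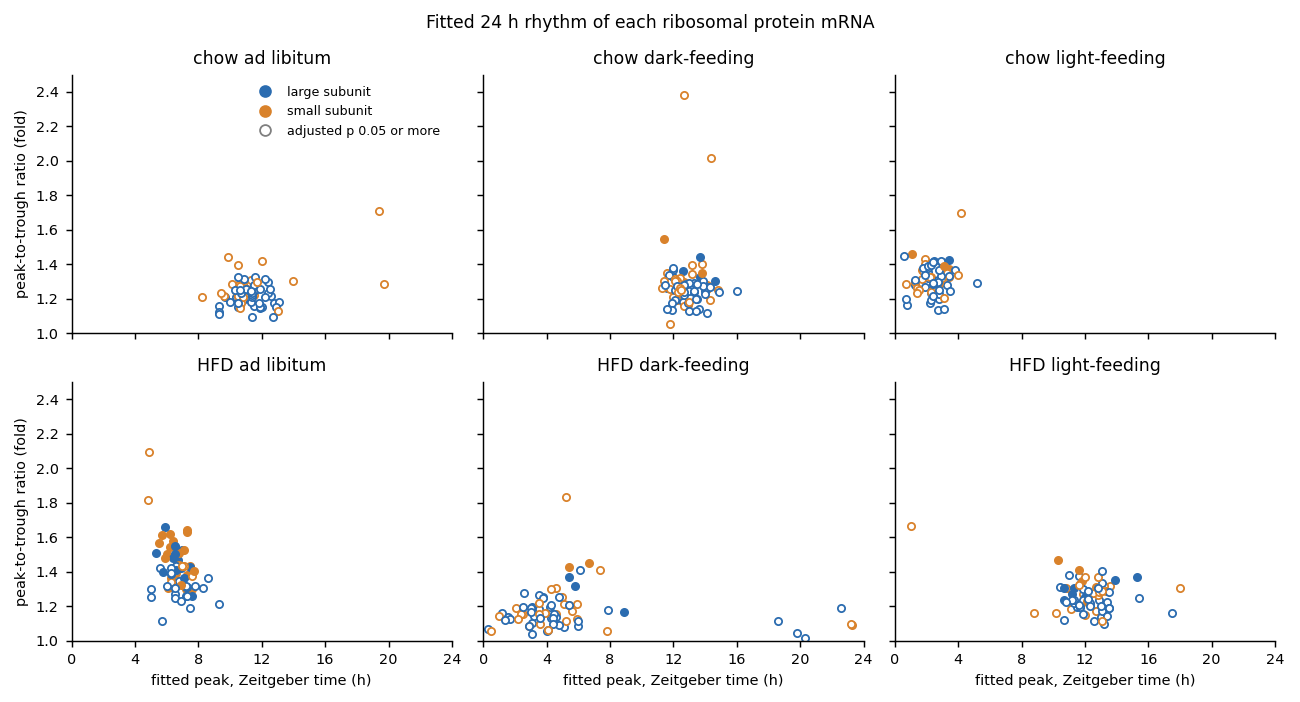
Fitted peak time (hours) and peak-to-trough ratio of each of the 73 members in the 6 treatments, filled where the rhythm passed an adjusted p of 0.05. Members lie close together within a treatment, for example near ZT2.5 in chow light-feeding and near ZT12.3 in HFD light-feeding. The fits included the libraries apart.

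The rhythms of the 2 diets differed in light-feeding. The test of the difference called 54 of 73 members there, against 9.18% of all genes, and 0 of 73 ad libitum and 0 of 73 in dark-feeding (0% of all genes in both, with 18 and 43 members at an unadjusted p under 0.05). DESeq2 called 0 ad libitum, 1 in dark-feeding and 58 in light-feeding. Without the libraries apart 55 were called in light-feeding (share over all genes not given), and with marker scores in the model 0.

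Rps29, a zinc-binding small subunit protein, had the smallest adjusted p for this difference (3.27e-03, edgeR). On chow it averaged 36.7 ± 10 CPM (n = 5) at ZT2, 32.8 ± 5.74 (n = 5) at ZT6, 27.2 ± 5.12 (n = 6) at ZT10, 24.6 ± 3.34 (n = 5) at ZT14, 30.1 ± 10.6 (n = 6) at ZT18 and 34.7 ± 4.195 (n = 6) at ZT22. On HFD it averaged 21.2 ± 3.26 (n = 5), 22 ± 2.85 (n = 6), 25.2 ± 3.73 (n = 5), 27.1 ± 4.63 (n = 6), 25 ± 3.84 (n = 5) and 21 ± 2.84 CPM (n = 6) at the same times. The chow course was lowest at ZT14, where the HFD course was highest, and at ZT14 the means differed by less than the spread between libraries. Rpl19 followed (adjusted p = 6.90e-03), with fitted peaks at ZT2.1 on chow and ZT15.3 on HFD, with Rpl36 (1.15e-02, ZT3.4 and ZT15.4) and Rps15 (1.26e-02, ZT3.1 and ZT13.1). The length slope of the libraries moved with the same hours, its median being -0.052, -0.044 and -0.025 at ZT2, ZT6 and ZT22 of chow light-feeding and 0.054, 0.049 and 0.030 on HFD, against 0.004 and -0.001 at ZT14. Its part in the rhythm difference was not tested.

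Between schedules within a diet, light-feeding and ad libitum were compared first. The rhythm differed for 8 members on chow, near the 11.3% of all genes, and for 26 on HFD (10.6%). Without the libraries apart these were 0 and 13. Between dark-feeding and ad libitum 0 members differed on chow (0.0347% of all genes) and 0 on HFD (0.0347%), with 0 and 15 at an unadjusted p under 0.05, and DESeq2 gave 0 in both.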

How the data were processed

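Bulk RNA-seq of 200 libraries was used, made from mRNA enriched on beads with a strand-specific protocol, per the labels' protocols. The authors deposited a table of estimated counts per gene (20361 genes, 8.03% of entries not whole) and a table of FPKM values (17611 genes). The build was Rnor 6.0 per the submitters' processing notes, and the aligner is not given in the sources used here. Raw counts had been foreseen, so the deposited expected counts were rounded to whole numbers. Groups came from the treatment and time labels, and replicate numbers only name libraries. Of 19900 pairs of libraries 0 were identical.

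Counts were scaled by TMM, filtered by treatment (14393 genes) and fitted with edgeR 4.0.16 (quasi-likelihood, Benjamini-Hochberg over all genes, threshold 0.05) in R 4.3.3, with limma 3.58.1 and DESeq2 1.42.0 as alternatives. Rhythms were cosines of 24 h period. Alternatives were size factors by RLE, TMM without ribosomal protein genes, no filter, limma on log2 FPKM (pseudocounts 0.1 and 1), offsets for transcript length, marker scores, 80 runs of title numbers as units, time as a factor and leaving out times. Leaving out 10 libraries apart in length slope, and keeping title numbers above 46, were chosen after seeing the data. Data of 14393 genes were also simulated, each gene drawn independently at a fixed spread, with some genes changed. The diet fit recovered 70% of the genes changed 1.25-fold and 100% of those changed 1.5-fold, and the rhythm fit 6% and 52%. No change below 1.25-fold was simulated. The members vary together, so these shares need not hold for them.

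The members and all lists were chosen with earlier results of these data known. Named members were, per diet or schedule comparison, the 8 largest called changes per direction, every call in the rarer direction and the 3 nearest 0; per rhythm the 6 largest called ratios; the 6 highest and 6 lowest FPKM; all members of 5 structural lists; and Rps6, Rpl3, Rpl22, Rps27a and Rpl41. Other lists gave up to 4 genes of smallest adjusted p, and Rpl36al, Eif3k ad libitum, Nap1l1, Larp1, Mtor, Deptor and Rrn3 are also given on schedules where they were not among those 4, chosen after their values were seen. In the comparisons at single times Rps15, Rps3, Rps26, Rpl36 and Rpl37a were chosen after their values were seen. Some genes that the rule names are not reported here. Sequences and motifs came from the RefSeq promoter table of GRCr8. Figures were drawn with matplotlib 3.10.9.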

Additional observations from a re-analysis of the deposited data

Results flagged for a closer look

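The summed large subunit level of 1 library lay far from the others of its group in 3 of the groups of treatment and time. It was 2744 CPM at ZT18 of chow ad libitum, where the next library had 2197 CPM. It was 3894 CPM at ZT6 of HFD ad libitum (next 2038 CPM) and 2094 CPM at ZT6 of HFD dark-feeding (next 1787 CPM). The summed small subunit level at ZT6 of HFD ad libitum was 2542 CPM in 1 library (next 1226 CPM). These were 4 of 72 tests, the 36 groups being tested for each subunit, and chance alone gives about 1 in 20. The sums of the 2 subunits move together, so the tests are not independent. The same library was flagged for both at ZT6 of HFD ad libitum.

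Rhythms differed between the diets in light-feeding for 54 members (9.18% of all genes; 0 members with marker scores). Between light-feeding and ad libitum they differed for 8 members on chow, near the 11.3% of all genes and 0 without the libraries apart, and for 26 on HFD (10.6% of all genes; 13 without those libraries and 2 with marker scores). By the test of the interaction, the diet difference changed with time for 62 members in dark-feeding (11.4% of all genes). In light-feeding 9 were called, not far above the 8.75% of all genes. Without the libraries apart these were 0 and 52, and with marker scores 0 and 0.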

How the results depend on the processing

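Of the alternatives, 183 counts of members stayed within 1.5 times the reported count and 79 moved further. The cause was not tested. Shares over all genes are not given beside the counts below, so they cannot be set against the background of the same fit. With length offsets 15, 10 and 7 members were lower on HFD (ad libitum, dark-feeding, light-feeding), 10 were higher in dark-feeding and 12 in light-feeding, and 10 differed between dark-feeding and ad libitum on HFD, 14 between light-feeding and ad libitum on HFD and 1 on chow. With marker scores 0, 8 and 0 were lower and 18 higher in light-feeding, 5 and 11 differed by dark-feeding and light-feeding against ad libitum on HFD, and 24 in the interaction of diet with light-feeding. Rhythms then numbered 3 in HFD ad libitum, 6 in HFD light-feeding and 0 in HFD dark-feeding, chow dark-feeding and chow light-feeding, rhythm differences 0 by diet in light-feeding and 2 (HFD) and 0 (chow) for light-feeding against ad libitum, and diet-by-time calls 0 in dark-feeding and light-feeding. With runs of title numbers as units 0, 37 and 34 were lower, light-feeding against ad libitum on HFD gave 0, and the rhythms of all treatments but chow ad libitum, already at 0, went to 0. DESeq2 gave 12 rhythms in chow light-feeding, 8 in HFD dark-feeding and 30 in HFD light-feeding, 27 diet-by-time calls in light-feeding, and rhythm differences of 1 by diet in dark-feeding and 18 for light-feeding against ad libitum on chow. With time as a factor the rhythm counts were 72 in chow dark-feeding, 0 in chow light-feeding, 16 in HFD ad libitum and 21 in HFD dark-feeding. Without the filter on low counts they were 3 in chow light-feeding and 3 in HFD dark-feeding, light-feeding against ad libitum on HFD gave 1, and limma on log2 FPKM (pseudocount 0.1) gave 1 rhythm in HFD dark-feeding. Ad libitum 4 members were lower without ZT14, 1 without ZT18 and 44 without ZT6; in dark-feeding 37 without ZT14; in light-feeding 31 without ZT2 and 32 without ZT22. Fitted on that time only, the counts lower were 0 at ZT14 ad libitum, 1 at ZT6 and 3 at ZT22 of dark-feeding, and 30, 42, 5, 0 and 47 at ZT2, ZT6, ZT10, ZT18 and ZT22 of light-feeding, where 2 were higher at ZT10. Title numbers above 46 left 0 calls for light-feeding against ad libitum on HFD. Without the libraries apart 35 were lower in light-feeding; by time 0 at ZT14 ad libitum, 19 and 9 at ZT14 and ZT22 of dark-feeding, and 3, 44, 1, 0 and 46 at ZT2, ZT6, ZT10, ZT18 and ZT22 of light-feeding. Rhythms then numbered 1 in chow dark-feeding, 19 in chow light-feeding and 19 in HFD ad libitum, rhythm differences for light-feeding against ad libitum 0 on chow and 13 on HFD, and diet-by-time calls 0 in dark-feeding and 52 in light-feeding. No paired analysis was possible because replicate numbers were given only in accession order. Depth limits Rps19 and Rps26, at 0 counts in 47 and 5 libraries.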
